A study of Mus musculus with 16 samples.

Results

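The cytosolic ribosomal protein genes encode the proteins that, with ribosomal RNA, build the small and the large subunit of the ribosome in the cytosol. Members were all protein-coding genes whose symbol is Rpl or Rps followed by a number, with an optional a, x or l at the end, together with Rplp0, Rplp1, Rplp2 and Rpsa. The rule found 80 genes among the 32697 genes of the count table, of which 46 belong to the large subunit, 31 to the small subunit and 3 to the stalk. The rule itself uses symbols and gene types and no measured value. The rule leaves out Rps3a1 and Fau, which also encode ribosomal proteins.

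The study deleted 1 of 2 immune signalling genes in mice and sequenced RNA from tumours of YUMM1.7, a mouse melanoma cell line, that had been engrafted into them. There were 4 groups of 4 libraries. The Irf1-deleted group carries the genotype label IRF1deltaXCR1 and its control the label IRF1FF, and the Ikbkb-deleted group carries IKKbdeltaXCR1 and its control IKKbFF. Irf1 encodes an interferon-regulated transcription factor, and Ikbkb encodes IKKb, a kinase that activates NF-kappaB. The deltaXCR1 labels name Xcr1, a chemokine receptor gene of type 1 conventional dendritic cells (cDC1), so the deletion was directed at cells that express Xcr1 and other cells keep the gene, and the FF controls carry the floxed allele without the deletion. The design text of the series speaks of cDC1 sorted from the tumours of the Ikbkb mice, the extraction notes of sorted cells, and the source label of tumours only. The mice were female and tumours were taken at 200 to 350 mm3; the notes on growth name the Ikbkb mice only, so the Irf1 groups rest on the genotype label, and no age was given in the labels. Below, the Irf1 set means the 8 libraries of both Irf1 groups and the Ikbkb set the 8 of both Ikbkb groups. The set and the floxed gene cannot be told apart, because every library of a set carries the same floxed gene.

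Cells need ribosomal proteins in matched amounts, since each subunit takes a single copy of nearly every one of them. Their mRNAs are among the most abundant in growing cells, and most begin with a run of pyrimidines, the 5' terminal oligopyrimidine (TOP) motif, through which mTORC1 and the RNA-binding protein LARP1 control their translation. Unassembled RPL5 and RPL11 bind MDM2 and so link ribosome assembly to p53, and the mouse genome holds very many processed pseudogenes of these genes.

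Libraries held 16478671 to 27433818 gene counts. The counts did not bear out a pure cDC1 sort. The 10 cDC1 markers summed to 728 to 8074 CPM (counts per gene scaled to a common library total), against 2964 to 13706 CPM for 9 macrophage markers and 6214 to 30906 CPM for 7 fibroblast markers, and Xcr1 was counted in all 16 libraries at 12.1 to 318.2 CPM. Of 7 pigment cell markers, Mlana, Tyr, Dct and Tyrp1 were each at 0 in 15 of 16 libraries, whereas Mitf was counted in all of them at 1.43 to 16.4 CPM. The 7 summed to 2.28 to 16.8 CPM, and 3 of them, Mitf included, passed the filter on low counts. Ikbkb was at 28.5 to 46.3 CPM in Ikbkb-deleted and 44.5 to 120.8 CPM in Ikbkb control libraries (edgeR adjusted p = 0.988). Its log2 fold change was -0.79 ± 0.33 (SE, unadjusted p = 0.028, edgeR). Irf1 was at 98.6 to 299.2 CPM in Irf1-deleted and 141.2 to 268.0 CPM in Irf1 control libraries (edgeR adjusted p = 1). The log2 fold change of Irf1 was -0.26 ± 0.40 (SE, unadjusted p = 0.53, edgeR). The targeted genes thus do not establish the labels, and the group names below follow the genotype labels only. Ikbkb-deleted replicate 1 and Ikbkb control replicate 3 stood apart with cDC1 marker sums of 8074 and 7617 CPM, against at most 3488 CPM in the other libraries. Irf1-deleted replicates 3 and 1 stood apart with 734 and 72.5 CPM summed over 4 keratinocyte markers, against at most 4.47 CPM elsewhere. Member counts and medians for each deletion and between sets are also given without the pair concerned. Values of named genes and of gene lists rest on all libraries unless stated. No label tells whether replicates came from separate mice, and the spread behind each p-value may therefore be technical.

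Ribosomal protein genes took a small share of each library. The share was 0.728%, 0.951%, 0.731% and 1.109% in the Irf1-deleted libraries 1 to 4, against 0.751%, 0.663%, 0.609% and 1.140% in the Irf1 control libraries. It was 0.999%, 1.39%, 1.78% and 1.35% in the Ikbkb-deleted libraries 1 to 4, against 1.33%, 1.43%, 0.762% and 1.76% in the Ikbkb control libraries. Deleted and control libraries overlapped in both sets. The means were 0.880% ± 0.185 in Irf1-deleted and 0.791% ± 0.240 in Irf1 control libraries (SD, n = 4 each), and 1.38% ± 0.320 in Ikbkb-deleted and 1.32% ± 0.417 in Ikbkb control libraries (SD, n = 4 each). Across sets, the 8 Irf1 libraries had a median of 0.741% and the 8 Ikbkb libraries 1.37%, and the ranges overlapped, since Ikbkb-deleted replicate 1 and Ikbkb control replicate 3 lay among the Irf1 libraries. A binomial (Wilson) 95% interval of a single share was narrow, for example 1.135% to 1.145% around the 1.140% of Irf1 control replicate 4, and covers counting error only.

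**Figure D1:**
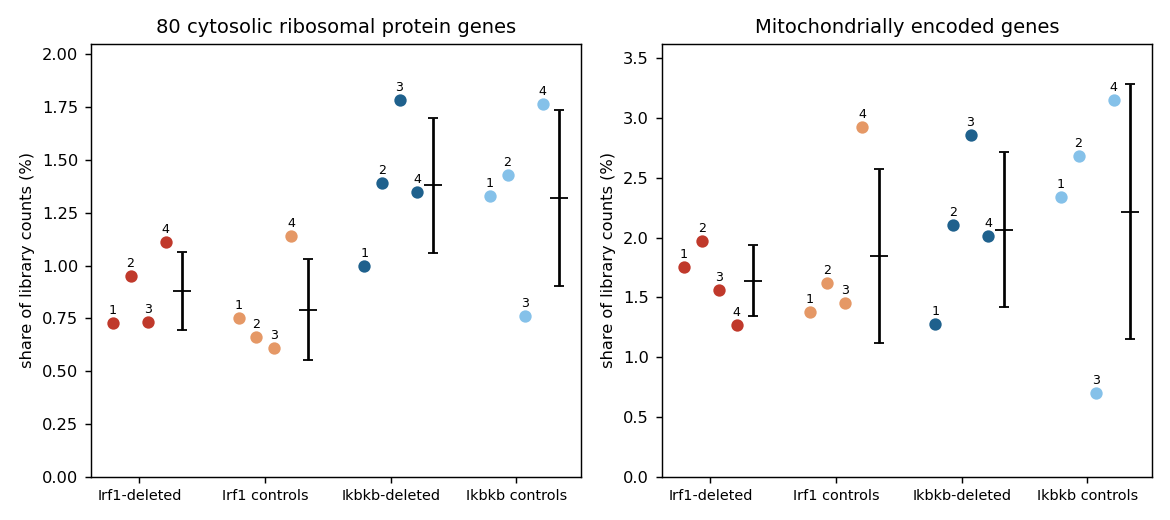
Share of each library's counts (%, vertical axis) in the 80 cytosolic ribosomal protein genes (left) and in mitochondrially encoded genes (right), by group; points are libraries with their replicate number and bars are the mean ± SD of 4. The Irf1 libraries sit between 0.609% and 1.140% for ribosomal protein genes, and the lowest of the Ikbkb libraries, control replicate 3 at 0.762%, also has the lowest mitochondrial share.

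The share moved with other properties of the libraries. Ikbkb-deleted replicate 1 and Ikbkb control replicate 3, the pair with the highest cDC1 marker sums, had the lowest ribosomal protein shares of the Ikbkb set and mitochondrial shares of 1.28% and 0.699%, against 2.02% to 3.15% in the other 6 Ikbkb libraries. Irf1 control replicate 4 had the highest ribosomal protein share of the Irf1 set and a mitochondrial share of 2.93%, against 1.27% to 1.97% in the other 7. Irf1-deleted replicate 4 had a high ribosomal protein share, 1.109%, with the lowest mitochondrial share of that set, 1.27%. What part these properties had in the share was not tested.

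Levels differed widely among genes whose proteins are used in equal numbers. By counts per gene, not corrected for length, high mean levels were those of Rps3, a small-subunit protein at the mRNA entry channel, at 1367 CPM, Rpl4 at 1042 CPM, the stalk base protein gene Rplp0 at 990 CPM and Rpl8 at 944 CPM. The 10 highest members held 66.7% of all member counts after scaling. At the other end, the lowest genes that passed the filter on low counts were Rpl24 at 0.692 CPM and Rpl23a at 1.59 CPM. Of the 80 members, 24 were under 10 CPM and 21 over 100 CPM. Per kilobase of transcript, Rpl8 stood at 926 CPM per kb, Rps3 at 716 CPM per kb and Rpl24, the lowest tested member, at 1.02 CPM per kb. Rpl5 and Rpl11, the pair that binds MDM2, stood at 2.20 and 6.16 CPM per kb.

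Counted levels were lower where a transcript shares sequence with other genes. Of all 50-base stretches of a member's transcript, a median of 43.5% also occurred in transcripts of other genes, mostly pseudogenes, against 0.0482% for 78 mitochondrial ribosomal protein genes. In 31 members at least 50% of the stretches were shared. Rps3 had 2.96% and Rpl8 6.49%, whereas Rpl24 had 81.7%, Rpl9 93.3% and Rps27 98.6%. The 38 tested members above the median of shared stretches had a median level of 18.7 CPM per kb, and the other 39 had 63.5 CPM per kb. Over the 77 tested members Spearman's rho between shared stretches and level per kilobase was -0.41, a description over genes of 1 family that share libraries and counting. Whether reads that map to several places were counted is not given in the sources used here, so a low level of a member with many copies is uncertain. The 263 ribosomal pseudogenes of the table took 0.00495% to 0.0170% of the counts of a library.

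**Figure D2:**
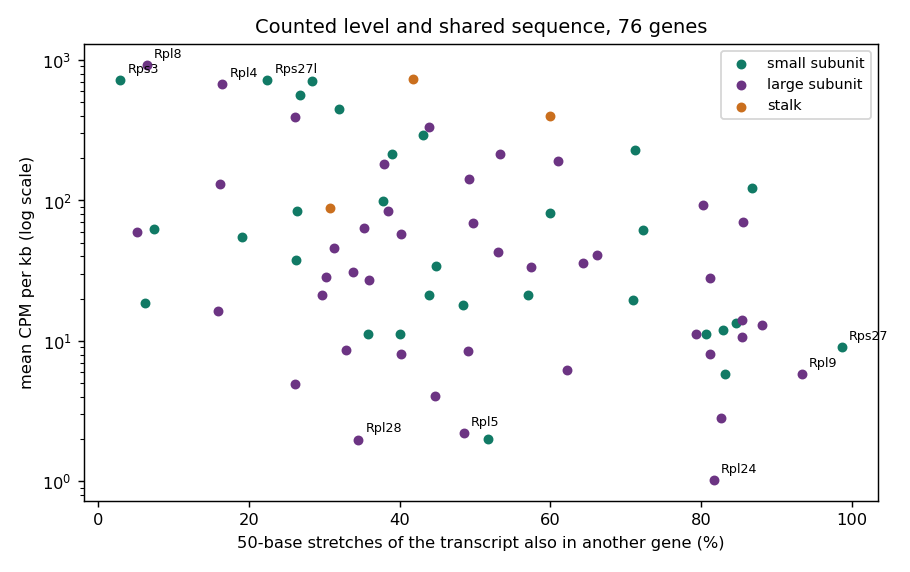
Mean level per kilobase (CPM per kb, log scale) against the percentage of 50-base stretches of a transcript that also occur in another gene, for 76 of 77 tested members coloured by subunit. Rpl8 and Rps3 lie at the upper left with few shared stretches, and Rps27 and Rpl9, with 98.6% and 93.3% shared, lie under 10 CPM per kb.

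Tissue-restricted paralogs were nearly absent. Rpl3l, the striated muscle paralog of Rpl3, had 0 to 26 counts, with at least 1 count in 8 of 16 libraries, whereas Rpl3 averaged 94.9 CPM. Rpl10l and Rpl39l, paralogs known from male germ cells, had at most 2 and 9 counts in a library, whereas Rpl10 averaged 9.17 CPM and Rpl39 80.1 CPM. These 3 genes failed the filter on low counts, which left 77 members tested. Rps27l, a p53-regulated paralog of Rps27, was the exception at 358.7 CPM, above Rps27 at 3.12 CPM, and the order was the same per kilobase, with 719 and 9.05 CPM per kb. Rps27 is also the member with most shared stretches. Rps4l, which the annotation does not list as protein-coding, averaged 7.19 CPM beside 60.0 CPM for the X-linked Rps4x.

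The promoters of members carried a pyrimidine run near the annotated start more often than promoters in general. RefSeq promoter windows of build GRCm38.p6, 250 bases before to 50 after the start, were found for 60 of the 80 members. An unbroken run of at least 8 C or T that reached within 20 bases of the annotated start, on either side, was present in 29 of these, 48.3%, against 20.8% of 27025 promoters. The letters CCGGAAG, the core bound by ETS factors, were found on either strand in 24, 40.0%, against 9.12% of all. AAGATGGC, the core of YY1 sites, was found in 4, 6.67%, against 2.88%. Because the study deleted Irf1 and Ikbkb, the letters of interferon response elements (GAAA, any 2 bases, GAAA) and of kappaB sites (GGG, any 2 bases, TTTCC) were searched too, on both strands. The first was found in 7, 11.7%, against 3.49%, and the second in 0, against 1.62%. A match is a description of letters and not a binding site. No pyrimidine run overlapped an ETS match in any member. A run found in this way need not lie in the transcript or be a TOP motif. The Rps27l run ends 14 bases and the Rpl4 run 5 bases before the annotated start. The Rpl13a run begins at base 3 after it, and those of Rplp2 and Rps6 span it. The windows below, each 30 bases written 5' to 3' on the gene's strand, show the run in capitals for members described further on. They go from Rps27l, which differed most between the sets, to Rpl4, which hardly differed.
Rps27l, chr9:66946053-66946082, plus strand: ccccgcctccaCTCCTCTCCactcctcccc
Rplp2, chr7:141447636-141447665, plus strand: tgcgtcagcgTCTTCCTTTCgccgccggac
Rps6, chr4:86857349-86857378, minus strand: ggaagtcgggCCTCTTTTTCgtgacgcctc
Rpl13a, chr7:45128722-45128751, minus strand: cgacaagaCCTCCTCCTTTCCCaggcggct
Rpl4, chr9:64173361-64173390, plus strand: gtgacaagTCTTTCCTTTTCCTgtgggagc
In Rpl4 the letters of the interferon response element lie within the run, on the other strand. An ETS match and interferon response element letters are shown next, again in capitals, from members that differed between the sets; the Rps7 match begins 14 bases before the start, that of Rps19 175 bases and that of Rpl5 128 bases before it.
Rps7, chr12:28635950-28635979, minus strand: ttttcagaagagCTTCCGGtttccacccac
Rps19, chr7:24884407-24884436, plus strand: cacgcccaagGAAACGGAAAgaggaaccag
Rpl5, chr5:107900390-107900419, plus strand: aaagcctctaTTTCCCTTTCtcatcgccca

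Deletion of Irf1 changed no ribosomal protein gene past the threshold. With edgeR's quasi-likelihood test and Benjamini-Hochberg adjustment over 16040 genes, 0 of 77 members had an adjusted p under 0.05, and 0% of all genes did. DESeq2 and limma voom also called 0 members, against 13 of all genes (0.0398%) by DESeq2 and 0 by limma voom. At an unadjusted p under 0.05 there were 2 members, against 2.61% of all genes. The median log2 fold change of members was 0.075, against -0.015 over all genes tested, and 55 of 77 members were above 0, against 48.2% of all genes. With limma voom the median was 0.23, with 71 members above 0. The edgeR median ran from -0.077 without Irf1-deleted replicate 4 to 0.40 without Irf1 control replicate 4. It was 0.28 without both keratin-high Irf1-deleted libraries.

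The largest value in the Irf1 deletion was that of Rps6, the ribosomal substrate of S6 kinases. Rps6 was at 5.72, 9.75, 7.60 and 24.3 CPM in Irf1-deleted libraries 1 to 4, against 7.23, 5.61, 4.42 and 4.58 CPM in Irf1 control libraries. Only replicate 4 of the deleted group was far above the controls, and the groups overlapped. The log2 fold change was 1.12 ± 0.42 (SE; unadjusted p = 0.0181, adjusted p = 1, edgeR), and 0.50 without Irf1-deleted replicate 4. Of the Rps6 stretches 84.6% are shared with other genes, so its counts are uncertain. Rps2, a small-subunit protein at the mRNA entry channel, was at 167, 213, 202 and 310 CPM in Irf1-deleted libraries, against 176, 154, 156 and 145 CPM in Irf1 control libraries. Its log2 fold change was 0.50 ± 0.20 (SE; unadjusted p = 0.0261, adjusted p = 1, edgeR), and 0.30 without the same library. Rpl8, with 593, 809, 674 and 936 CPM in Irf1-deleted and 575, 560, 492 and 645 CPM in Irf1 control libraries, had 0.41 ± 0.20 (SE), also short of the threshold. The lowest values by p were -0.90 for Rps12, -0.58 for Rpl10a and -0.22 for Rpl38, none past the threshold. For Rpl38 the sign turned to 0.26 without Irf1 control replicate 4, to 0.078 without both keratin-high libraries and to 0.081 with limma voom.

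Deletion of Ikbkb likewise changed no member past the threshold. Of 77 members, 0 were called by edgeR, DESeq2 or limma voom. Of all genes, edgeR and limma voom called 0% and DESeq2 called 55 (0.168%). At an unadjusted edgeR p under 0.05 there were 0 members, against 4.79% of all genes. The median log2 fold change was 0.084, against -0.018 over all genes tested, and 64 of 77 members were above 0, against 47.8% of all genes. With limma voom the median was -0.0074, with 38 members above and 39 below 0. The edgeR median ran from -0.11 without Ikbkb-deleted replicate 3 to 0.27 without Ikbkb control replicate 4, and it was 0.049 without both libraries with high cDC1 markers. Rps3 was at 1399, 1748, 2743 and 1684 CPM in Ikbkb-deleted libraries 1 to 4, against 1878, 1955, 1105 and 2477 CPM in Ikbkb control libraries. Rpl8 was at 1043, 1394, 1387 and 1318 CPM in Ikbkb-deleted libraries, against 1120, 1302, 760 and 1500 CPM in Ikbkb control libraries. In both genes the lowest control was replicate 3 and the groups overlapped. Members with the smallest p were Rpl21 at 0.42, Rpl28 at 0.52 and Rps26 at 0.21 among positive log2 fold changes, and Rpsa at -0.17, Rps10 at -0.19 and Rps27 at -0.13 among negative ones. The 3 negative values turned positive without Ikbkb control replicate 4, to 0.069 for Rpsa, 0.044 for Rps10 and 0.0715 for Rps27.

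The difference between both deletions was tested in the same fit. No member of 77 was called by edgeR, DESeq2 or limma voom. Of all genes, edgeR and limma voom called 0% and DESeq2 called 14 (0.0428%). At an unadjusted edgeR p under 0.05 there were 0 members, against 2.84% of all genes. The smallest p among positive differences belonged to Rps2 at 0.46 ± 0.29, Rps6 at 0.93 ± 0.59 and Rplp0 at 0.40 ± 0.30 (log2, SE), all with an edgeR adjusted p of 1. Among negative differences it belonged to Rps12 at -1.06, Rpl24 at -0.89 and Rpl10a at -0.57, and for Rpl10a limma voom gave 0.026.

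The large contrast in these genes lay between the sets. In the Irf1 set, 49 of 77 members fell and 0 rose relative to the Ikbkb set, 63.6% of members against 13% of all genes called lower and 15% called higher. The median log2 fold change of members was -0.73, a 0.602-fold level, against 0.011 over all genes tested. A value below 0 was found in 75 of 77 members, against 49.4% of all genes. Only Rps10 (0.15 ± 0.43 SE) and Rpl28 (0.086 ± 0.32 SE) lay above 0, at mean levels of 1.79 and 2.19 CPM. limma voom called 68 of 77 members lower, against 17.4% of all genes, and DESeq2 64 of 80, against 14.2%. By subunit, 23 of 31 small-subunit genes fell (median -0.87), 23 of 43 large-subunit genes (median -0.66) and 3 of 3 stalk genes (median -0.73). The ratio of small-subunit counts to large-subunit and stalk counts together ran from 0.769 to 1.101 over the Irf1 set. Over the Ikbkb set it ran from 0.984 to 1.23. Of 56 members at 10 CPM or more 45 fell, and 4 of 21 at lower levels. Well-counted genes were lower in general. Over all genes tested the median was -0.19 at a log2 CPM from 6 to 8 and -0.33 above 8, against -0.73 and -0.94 for members. Among genes with at least 5 CPM in 4 libraries, 53 of 70 members were called lower. In that fit 39.2% of all genes were called in either direction. No member had sets that did not overlap at all, against 2.26% of all genes lower and 2.35% higher.

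Short transcripts were lower in the Irf1 set in general, and ribosomal protein transcripts are short. The tested members have a median transcript length of 878 bases, against 2735 bases over all genes tested. Over all genes the median log2 fold change between sets was -0.57 for transcripts up to 500 bases, -0.45 up to 1000, -0.32 up to 1500, -0.20 up to 2000, -0.0038 up to 3000, 0.21 up to 5000 and 0.62 above that. The members' medians were -0.66, -0.79, -0.73 and -0.71 in the first 4 of these ranges, with 11, 38, 17 and 6 genes. In the longer ranges they were -0.68, -0.63 and -0.99, with 3, 1 and 1 genes. Among the 77 tested members Spearman's rho between transcript length and log2 fold change was 0.06, a description without a test. What part length had in the members' values was not tested. When the length trend, taken from genes that are not members, was removed from each library, an alternative chosen after the data were seen, 25 of 77 members were called lower and 0 higher, against 10.9% of all genes called lower, and the median of members was -0.25, with 16 genes above 0. All 25 were among the 49. They comprised 15 small-subunit, 9 large-subunit and 1 stalk gene.

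**Figure D3:**
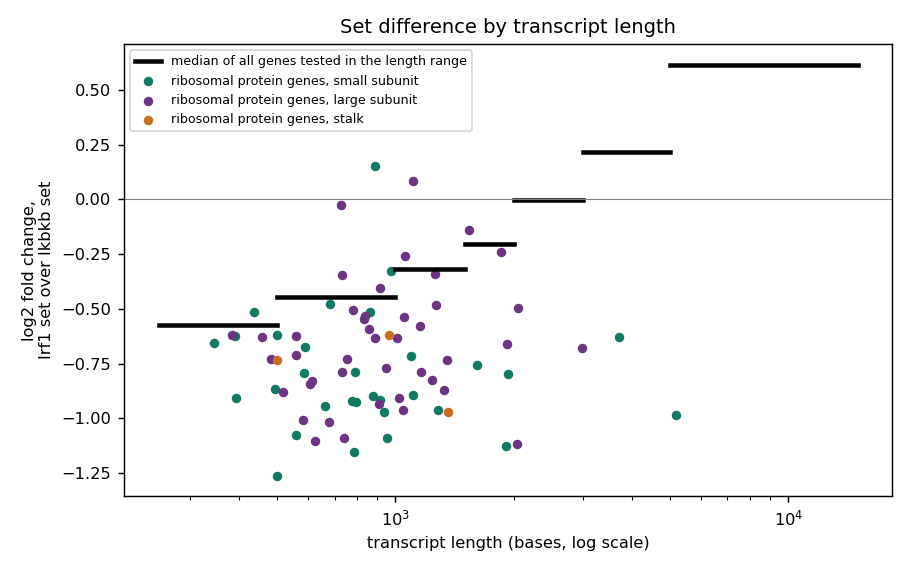
Log2 fold change of the Irf1 set over the Ikbkb set against transcript length (bases, log scale) for 77 members coloured by subunit, with the median of all genes tested in each length range as black lines. The medians of all genes climb from -0.57 to 0.62 with length, and most members lie under the line of their range.

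Rps27l (ENSMUSG00000036781, chromosome 9, 66946086 to 66949516 in GENCODE's mm10 annotation, plus strand) had the largest fall. It was at 171, 209, 150 and 275 CPM in Irf1-deleted libraries and at 179, 160, 120 and 426 CPM in Irf1 control libraries, against 397, 520, 773 and 401 CPM in Ikbkb-deleted and 442, 487, 434 and 595 CPM in Ikbkb control libraries. Irf1 control replicate 4 alone reached into the range of the Ikbkb set. The log2 fold change was -1.26 ± 0.24 (SE; edgeR adjusted p = 0.00166), and -0.67 with an edgeR adjusted p of 0.000566 with the length trend removed.

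Rps3 (ENSMUSG00000030744, chromosome 7, 99477896 to 99483738, minus strand), the member with the most counts, was at 760, 987, 681 and 1214 CPM in Irf1-deleted and 785, 623, 660 and 1171 CPM in Irf1 control libraries, against the Ikbkb values given above. The highest Irf1 libraries overlapped only with Ikbkb control replicate 3. Its log2 fold change was -1.13 ± 0.20 (SE; edgeR adjusted p = 0.00108). The annotated transcript used for its length, 1908 bases, is longer than that of most members and need not be the one expressed. With the length trend removed the value was -0.97 (edgeR adjusted p = 0.0032), and this value depends on that length.

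Rplp0 (ENSMUSG00000067274, chromosome 5, 115559467 to 115563727, plus strand), the scaffold of the stalk that recruits translation factors, was at 568, 801, 633 and 1074 CPM in Irf1-deleted and 646, 485, 563 and 617.7 CPM in Irf1 control libraries, against 1149, 1341, 1401 and 1361 CPM in Ikbkb-deleted and 1257, 1432, 883 and 1633 CPM in Ikbkb control libraries. Its log2 fold change was -0.97 ± 0.15 (SE; edgeR adjusted p = 0.000469), and -0.65 with the length trend removed (edgeR adjusted p = 0.00119). The other stalk genes, Rplp1 and Rplp2, fell by 0.73 and 0.62 on the log2 scale, but had -0.098 and -0.19 with the length trend removed, at edgeR adjusted p of 0.44 and 0.357.

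Further genes fell in both fits. Rps14, a small-subunit protein of the platform, had -1.15 ± 0.26, Rpl5 -1.12 ± 0.29, Rpl34 -1.10 ± 0.27 and Rps7 -1.09 ± 0.23 (log2, SE), with edgeR adjusted p between 0.00303 and 0.00985. With the length trend removed they were -0.67, -0.997, -0.53 and -0.63. Rpl5 had a low level and 48.5% of its stretches are shared with other genes, so its counts are uncertain. Its value with the trend removed also depends on an annotated transcript of 2045 bases. Rpl8 was -0.91 ± 0.14 and Rps19, mutated in Diamond-Blackfan anaemia in humans, -0.92 ± 0.19. Rps19 was at 116 to 222 CPM with a median of 135 CPM in the Irf1 set, against 209 to 416 CPM with a median of 287 CPM in the Ikbkb set. Rpsa, also a laminin receptor, was -0.80 ± 0.20, and -0.65 with the length trend removed. Rpl3, which lies at the peptidyl transferase centre, was -0.73 ± 0.16, and -0.40 with the trend removed.

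Other members were not past the threshold once the length trend was removed, or were called on a narrow margin. Rpl13a, known in human myeloid cells for translational silencing of inflammatory mRNAs, was at 14.3 to 40.4 CPM in the Irf1 set, against 21.6 to 81.9 CPM in the Ikbkb set. It fell by 0.96 on the log2 scale (SE 0.26; edgeR adjusted p = 0.0125), and its adjusted p was 0.0599 with the length trend removed. Rpl39, a small protein of the exit tunnel, fell by 0.83, with an adjusted p of 0.19 after removal. Calls on Rpl10, Rplp2, Rps4x, Rps27a, Rps6 and Rps26 were lost in 12, 12, 11, 10, 9 and 6 of 16 fits that left out a single library, with edgeR adjusted p up to 0.102. Rps26 and Rps4x, at -0.48 and -0.33, were 0.097 and 0.14 with the trend removed.

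Some members stayed near 0 or missed the threshold. Rpl4 was at 960, 1215, 1083 and 1008 CPM in Irf1-deleted and 1018, 856, 956 and 846 CPM in Irf1 control libraries, against 1014, 1018, 1174 and 1151 CPM in Ikbkb-deleted and 1062, 1141, 926 and 1244 CPM in Ikbkb control libraries. All groups overlapped, and the log2 fold change was -0.14 ± 0.094 (SE; edgeR adjusted p = 0.288), and 0.13 with the length trend removed. Rpl10a was -0.025 ± 0.29 (log2, SE), and 0.53 ± 0.22 with the length trend removed (edgeR adjusted p = 0.0961). Rpl21 was -0.24 ± 0.21, and -0.064 with the trend removed. Rpl22, which has a role in T cell development in mice, was -0.50 ± 0.19, Rpl38, tied to selective translation in mouse embryos, -0.63 ± 0.26, and Rpl11 -0.55 ± 0.32, all short of the threshold by edgeR adjusted p. Rps27 was -0.66 ± 0.31, and 0.11 with the trend removed.

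**Figure D4:**
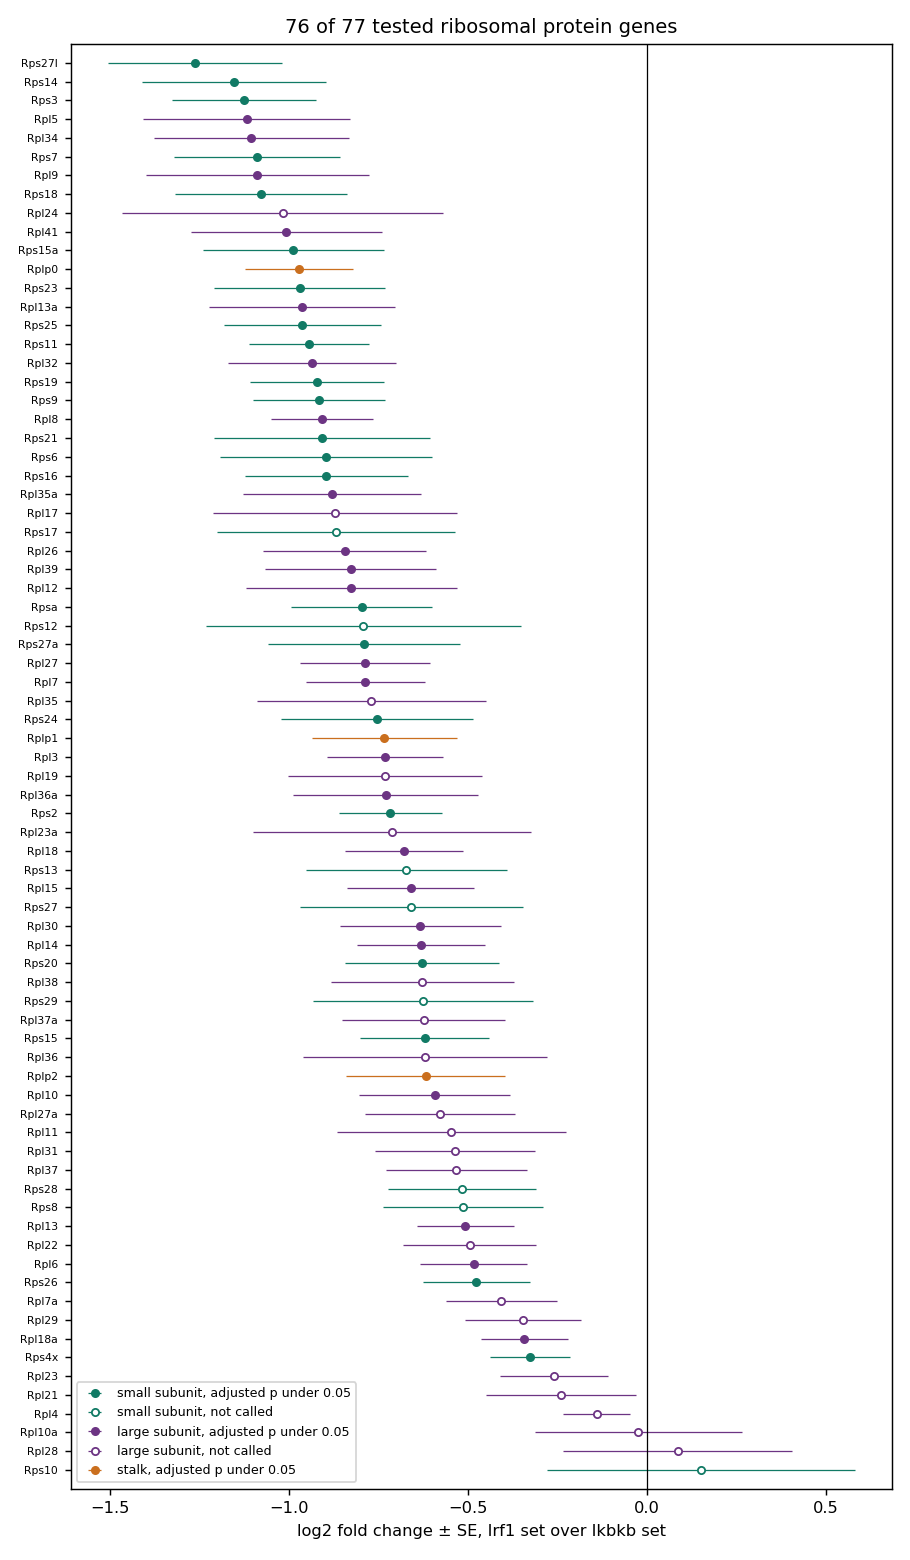
Log2 fold change of the Irf1 set over the Ikbkb set with its standard error for 76 of the 77 tested members, sorted, coloured by subunit, with filled points for an edgeR adjusted p under 0.05. The values run from Rps27l at -1.26 to Rps10 at 0.15, and those of Rps10 and Rpl28 alone lie above 0.

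Set results moved with the libraries chosen. The count was 35 to 61 with each library left out in turn, and the share of all genes called in those fits is not given here. Without both high-cDC1 libraries of the Ikbkb set 61 of 77 were called lower, with a median of -0.88. In that fit 29.1% of all genes were called in either direction. Without both keratin-high Irf1-deleted libraries 16 of 78 were called, against 5.81% of all genes called lower, with a median of -0.63. The Irf1-deleted group is then 2 libraries.

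Control libraries alone gave the same direction with fewer calls. Between Irf1 control and Ikbkb control libraries 19 of 77 members were lower and 0 higher, against 5.84% of all genes called lower and 6.74% called higher, with a median of -0.71, and all 19 were among the 49. limma voom called 60 of 77 lower, against 12.2% of all genes, and DESeq2 26 of 80, against 9.09%. This contrast shares its libraries with those above and is given beside them. It rests on single libraries: the count was 46 without Irf1 control replicate 4, 25 without Ikbkb control replicate 3, 10, 7 and 4 without Ikbkb control replicates 1, 2 and 4, and 4, 3 and 3 without Irf1 control replicates 1, 2 and 3. The share of all genes called in these fits is not given here. With the length trend removed the count was 7, against 4.08% of all genes, with a median of -0.24. Control values did not overlap in 8 members, all lower, among them Rplp0, Rpl8 and Rps2, against 7.16% of all genes lower.

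**Figure D5:**
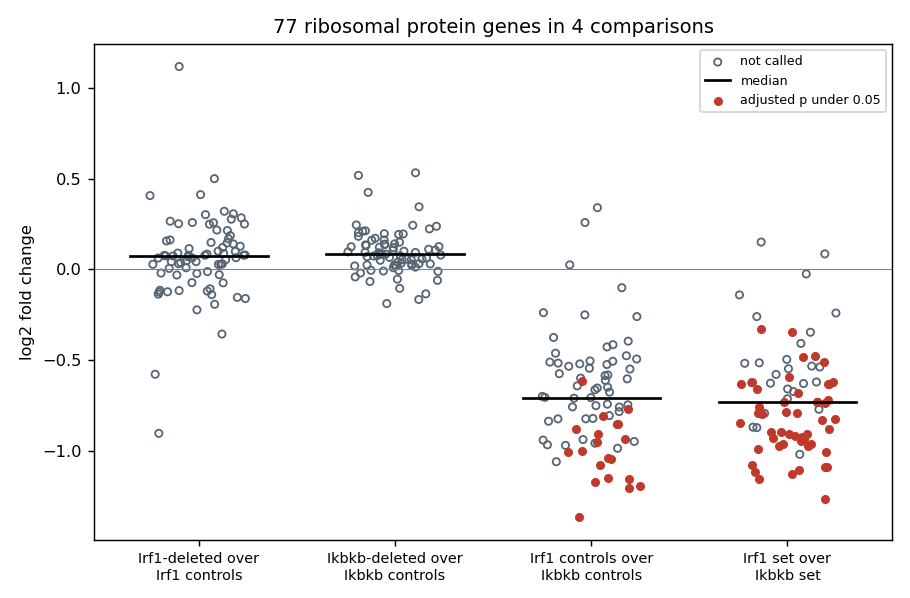
Log2 fold changes of the 77 members in 4 comparisons, with the median as a line and red for an edgeR adjusted p under 0.05. Members scatter around medians of 0.075 and 0.084 in the Irf1 and Ikbkb deletions and around -0.71 and -0.73 between controls and between sets.

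Gene groups related to the ribosome went partly the same way between sets, and their counts are read against the 13% of all genes called lower and the 15% called higher. Of 77 mitochondrial ribosomal protein genes 55 fell and 0 rose, with a median of -0.59, and 29 fell and 2 rose with the length trend removed, with a median of -0.29. Of 27 translation genes known for TOP mRNAs, 14 fell and 2 rose (median -0.45). Rack1, a scaffold protein on the small subunit, was -0.98, the elongation factor genes Eef1a1 -0.74 and Eef1b2 -0.73 and the initiation factor gene Eif3h -1.02, whereas Eif4b was 0.53 and Pabpc1, a poly(A)-binding protein gene, 0.40, all past the edgeR threshold. Eef2, the translocation factor gene, was 0.31 and missed it at an adjusted p of 0.0551. Of 33 ribosome assembly genes 10 fell and 4 rose (median -0.22), with Ncl, which encodes nucleolin, at 1.16 and Nhp2, of box H/ACA particles, at -0.87. Of 16 genes of mTORC1 and TOP control, 3 rose and 2 fell (median 0.23): Deptor 1.39, Larp1 1.09 and Rps6kb1 0.69 against Rheb -0.59 and Eif4e -0.45. With 12.5% of this list called lower, its counts are near those of all genes. Ribosomal genes outside the rule gave -0.66 for Rps3a1 and -0.81 for Fau, both past the threshold. Of 41 tested pseudogenes 7 fell, 17.1%, close to the share of all genes, and 0 rose (median -0.77).

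Irf1 itself, in whose floxed state the sets differ, was 98.6 to 299.2 CPM in the Irf1 set, against 225.2 to 891.8 CPM in the Ikbkb set (log2 fold change -1.02 ± 0.29 SE; edgeR adjusted p = 0.0153). Markers of cell types moved between the sets as well. In the Irf1 set 6 of 7 fibroblast markers rose (median 1.27), with a summed level of 11330 to 30906 CPM, against 6214 to 11947 CPM in the Ikbkb set, and 2 of 9 T and NK cell markers fell (median -1.26), summed to 46.0 to 620.6 CPM, against 190.9 to 1604 CPM. Muscle markers fell in 3 of 3 tested, summed to 1.74 to 5.97 CPM, against 16.9 to 651.1 CPM. Of 10 cDC1 markers 0 were called, with a median of -0.87 and 9 of 10 below 0, and of 9 macrophage markers 0, with a median of -0.45. Of 3 tested melanoma markers 1 rose, Mitf at 0.91 (edgeR adjusted p = 0.0413), of 3 tested keratinocyte markers 1 rose, and of 4 B cell markers 0 were called (median -1.57). Whether these differences have a part in the ribosomal protein values was not tested, and fewer cells of a type and less RNA per cell cannot be told apart in bulk libraries.

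Pyrimidine runs did not sort the members by how far they fell. Of the tested members with a promoter window, 17 of 28 with a run were called lower between sets (median -0.67), and 20 of 29 without one (median -0.79). The 23 with an ETS match had a median of -0.73, against -0.74 in 34 without, and the 7 with interferon response element letters -0.92, against -0.73 in 50 without. In the Irf1 deletion the 7 had a median of 0.10, against 0.041 in the others. These are descriptions without a test, and a run counted here need not lie in the transcript.

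Members varied together across libraries. The correlation of a member's log2 CPM with the mean of all members had a median of 0.94 over 16 libraries, and was above 0.8 in 64 of 77 members. Within sets the median was 0.91 over the 8 Irf1 libraries and 0.95 over the 8 Ikbkb libraries. All points share libraries, scaling and the length trend. Of genes outside the rule, those most like the members' mean over 16 libraries were Eef1b2 at a correlation of 0.99, Mrpl20 at 0.99, Nme2 at 0.99, Polr2i at 0.99, Mrpl13 at 0.98, Commd1, Hint1, Ndufb2, Gpx4 and Nop10, the last 5 also at 0.98.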

How the data were processed

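RNA from 16 libraries was sequenced with SMART-Seq v4 from 1000 pg of RNA, with 12 cycles for cDNA and 12 for the library, per the labels. The deposited values are raw read counts per gene. The submitters' processing notes list HTSeq (0.6.1p1), STAR (2.5.3a), cutadapt (1.10) and bcl2fastq (2.17.1.14), and name build mm10. The annotation release, strand and multimapping settings are not given in the sources used here. Symbols, types and lengths came from GENCODE, promoters from RefSeq. Each gene was given 1 annotated principal transcript, the longest where several ranked equally, which need not be the one expressed. Levels per kilobase, shared stretches and values with the length trend removed depend on that choice.

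Genes passed edgeR's filter (counts of at least 10, total 15), were scaled by TMM and tested with edgeR 4.0.16 in R 4.3.3, a quasi-likelihood fit of 4 group means over 16 libraries with Benjamini-Hochberg adjustment over 16040 genes and a threshold of 0.05. CPM uses the scaled library sizes. DESeq2 1.42.0 and limma 3.58.1 (voom) were alternatives. The fits were tested on simulated data, where DESeq2 called too many unchanged genes and edgeR and voom had a lower share of false calls. The simulation used edgeR's own estimates of spread and no length trend. It does not show how the fits behave on these data. The length trend, a loess curve over genes that are not members, was removed from each library through offsets in edgeR.

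The members and lists were chosen with earlier results of these data known. Genes were named by rule: per contrast the called members with the largest change, up to 6 a side, or else the 3 with the smallest p; the 5 highest and 5 lowest members by level; paralog pairs; 14 members with known roles; and the 10 other genes most like the members' mean. Results for 2 genes within the rules or lists are not reported here. Rpl9 and the genes named within the related lists were chosen after their values were seen.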

Additional observations from a re-analysis of the deposited data

Results flagged for a closer look

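In 60 groups of 4 libraries, over 3 shares or ratios and 12 members, a library lay far from the other 3 in 2 cases by Dixon's test; chance gives about 1 in 20. Both were Irf1 control replicate 4. Its mitochondrial share was 2.93%. Its ratio of small-subunit counts to large-subunit and stalk counts together was 1.101, against 0.787 to 0.837 in the other 3 Irf1 control libraries. This library also has the highest ribosomal protein share of the Irf1 set.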

How the results depend on the processing

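No paired analysis was possible because the labels carry no replicate numbers: numbers were given in accession order and pair nothing. Between sets the count of members called was 35 to 68 over scaling, filters, DESeq2 and limma voom. All genes called in either direction were 11.5% in the fit with 35 and 39.4% in the fit with 68. With 1 library left out the count was 35 to 61 (median -0.86 to -0.65). With the length trend removed, chosen after seeing the data, it was 25 (median -0.25), and 16 without both keratin-high libraries. Between controls it was 11 with upper-quartile scaling and 9 with no filter, against 11.7% and 3.67% of all genes in either direction. It was 60 with limma voom (12.2% of all genes lower) and 7 with the length trend removed (median -0.24). With 1 library left out it was 3 to 46 (median -1.002 to -0.55). The cause was not tested. With the 100 highest other genes removed, the ribosomal protein share was 1.09% in Irf1-deleted and 1.74% in Ikbkb-deleted libraries. Signs turned between sets with the length trend removed for Rps26 (0.097), Rps27 (0.11), Rps4x (0.14) and Rpl4 (0.13); in the Irf1 deletion for Rpl38 with limma voom (0.081), without both keratin-high libraries (0.078) and with 1 library left out (-0.44 to 0.26); in the difference for Rpl10a with limma voom (0.026); and in the Ikbkb deletion with 1 library left out for Rpsa (-0.35 to 0.069), Rps10 (-0.48 to 0.044) and Rps27 (-0.33 to 0.0715). The count called in both deletions was 0 under every alternative run.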
